A study of Mus musculus with 6 samples.

Results

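The genes described here encode the heavy and light chains of the myosins, the motor proteins that pull on actin filaments. They are the protein-coding rows of the deposited expression table whose symbol begins with Myh, Myo or Myl followed by a digit, and they number 50 of 54532 rows (22046 of them protein coding). By symbol they fall into 14 heavy chains of myosin II (Myh), 11 light chains (Myl) and 25 unconventional myosins (Myo). RNA-seq was done on LSK cells (Lin-Sca1+c-Kit+), the bone marrow fraction that holds hematopoietic stem and progenitor cells, with 3 libraries from each of 2 groups of C57BL/6 mice. The Myh9-deficient group (cKO) was Myh9fl/fl;Mx1-cre, and the control group (CTRL) consisted of littermates with floxed Myh9 alleles and no cre. Both groups received poly I:C at 5 mg/kg, in 2 doses by the sample labels, and LSKs were sorted 4 days after the first dose, with 100000 cells in each library. Mice were genotyped at 4 to 5 weeks, and their age at the sort was not given in the labels. Cre under the Mx1 promoter is switched on by poly I:C in blood cells and in other tissues as well, so the loss of Myh9 was not limited to the sorted cells.

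A myosin II molecule is a pair of heavy chains, each with an essential light chain and a regulatory light chain bound at its neck. Non-muscle cells use the heavy chains NMHC IIA (Myh9), IIB (Myh10) and IIC (Myh14), and phosphorylation of the regulatory light chain switches the motor on. Myosin IIA is the form for which blood cells are best known, and platelet formation depends on it. Unconventional myosins work without thick filaments and tie membranes and cargo to actin.

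Expression was given as FPKM, the reads on a gene scaled to its length and to the reads counted in the library. Between 17571544 and 19894562 reads fell on genes in a library, and 3 reads on a gene of 1 kb equalled 0.151 to 0.17 FPKM. The test was limma on log2(FPKM + 1), run on every gene whose mean reached 1 FPKM, and genes with an adjusted p (Benjamini-Hochberg) under 0.05 were called. All 8 LSK markers examined had at least 3 reads in every library, and their summed level was 211 to 216 FPKM in CTRL and 216 to 224 FPKM in cKO libraries. Of the 7 LSK markers tested 3 were called, with Flt3 (19.8 ± 0.780 to 30.1 ± 1.18 FPKM) and Hlf (3.73 ± 0.402 to 5.16 ± 0.469 FPKM) higher and Kit (23.9 ± 0.454 to 21.5 ± 0.334 FPKM) lower. Summed over 8 markers each, neutrophil and monocyte genes had 6612 to 6673 FPKM in the control libraries against 3465 to 3527 FPKM in the cKO libraries, and macrophage genes had 53.5 to 53.9 against 39.8 to 40.7 FPKM. T and NK cell genes had 356 to 366 against 301 to 307 FPKM, a sum set by Nkg7 (353 ± 4.87 to 280 ± 2.97 FPKM), while the other 2 tested, Trbc2 (1.22 ± 0.182 to 6.13 ± 0.235 FPKM) and Gzmb (5.04 ± 0.374 to 15.9 ± 0.0631 FPKM), rose. Sums were higher in cKO libraries for erythroid genes (419 to 424 against 752 to 777 FPKM), megakaryocyte genes (63.6 to 67.9 against 135 to 140 FPKM), mast cell and basophil genes (143 to 155 against 206 to 215 FPKM) and B and plasma cell genes (65.2 to 69.5 against 102 to 107 FPKM).

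Of the 50 myosin genes, 17 reached a mean of 1 FPKM and were tested: 2 heavy chains, 6 light chains and 9 unconventional myosins. Another 9, all unconventional, had at least 3 reads in every library but a lower mean. A further 12 fell under 3 reads in at least 1 library, and 12 had no read in any library. Of the 17 tested genes, 10 were called, 5 higher and 5 lower in Myh9-deficient LSKs. Calls were frequent across the transcriptome, since 40.5% of all 11552 genes tested were called, 19.9% higher and 20.6% lower. Among the 17 genes, 11 had groups without overlap, against 54% of all genes tested. By the study's own thresholds (a change beyond 2-fold, with an unadjusted p under 0.05) no myosin gene passed with limma on log2(FPKM + 1) and 1, Myl10, with voom on the recovered reads, while 2.13% of all genes tested passed with limma. Without control library 1 or cKO library 3, the number called higher was 3 in place of 5. The median log2 fold change was -0.02 over the 17 genes and -0.01 over all genes tested.

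**Figure D1:**
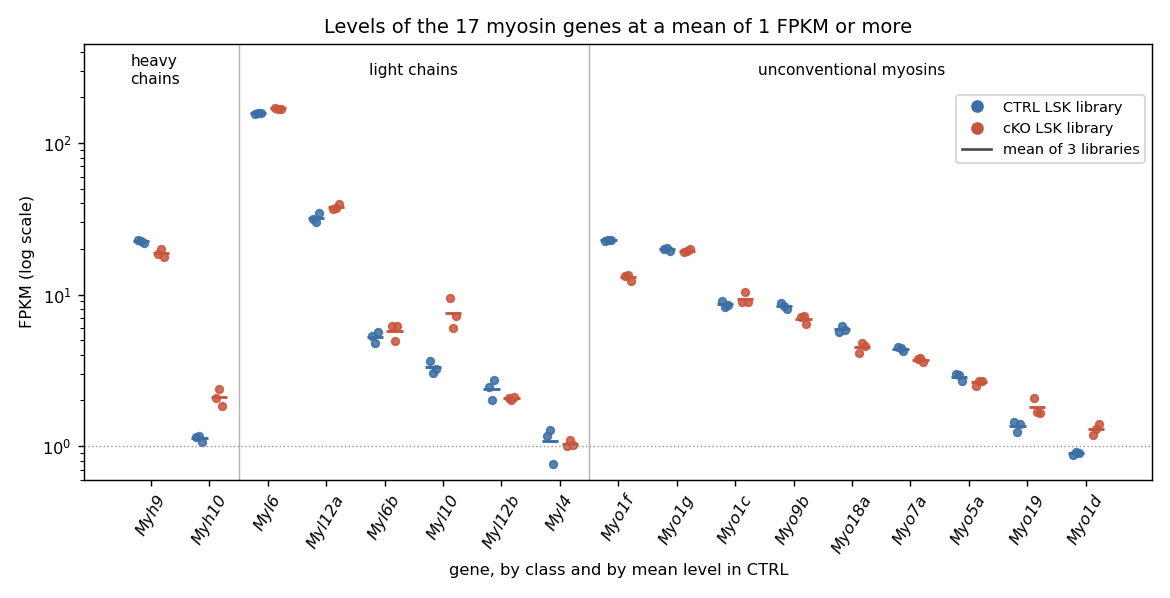
FPKM on a log axis (vertical) of the 17 tested myosin genes (horizontal, by class and by mean level in control) in 3 control (blue) and 3 Myh9-deficient (red) LSK libraries, with the mean of each group as a line and 1 FPKM dotted. Myl6 lay above 150 FPKM in all 6 libraries, and the control and cKO points of Myo1f, Myh10 and Myl10 stood clearly apart.

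Among the heavy chains, Myh9 was the main transcript of LSKs and the gene that was floxed. Myh9 (ENSMUSG00000022443, chr15:77760587-77842175, minus strand, mm10) stood at 23.0, 22.6 and 22.0 FPKM in the control libraries and at 18.4, 20.0 and 17.7 FPKM in the Myh9-deficient ones. Every cKO library lay below every control library, yet each kept many reads on the gene (4247 to 4706, against 5153 to 5908 in control). The mean fell by 17.1%, from 22.5 ± 0.495 to 18.7 ± 1.18 FPKM (SD, n = 3), a log2 fold change of -0.26 (95% confidence interval -0.38 to -0.14, adjusted p = 0.0064). By the study's description the loxP sites lie around exon 1 of Myh9. The table sums reads over the whole gene, so it does not show the deleted exon on its own, and the level of the remaining transcript is no measure of how many cells lost the protein. In bulk samples fewer cells with a transcript and less of it per cell cannot be told apart.

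Fold changes drifted with gene length. Over all genes tested, the median log2 fold change was 0.11 in the quintile of shortest genes and -0.09 in that of the longest (6633 bases or more), and 8 of the 17 tested myosin genes, Myh9 among them, were in the longest quintile. With each library's trend with GC content and length removed, the log2 fold change of Myh9 shrank to -0.10 (adjusted p = 0.106) and the call was lost. In the same fit 7 myosin genes were called higher and 1, Myo1f, lower, against 5 and 5 without this correction.

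Myh10, the heavy chain of myosin IIB, was the only other heavy chain above the filter, and it moved the opposite way. Myh10 (ENSMUSG00000020900, chr11:68691559-68816632, plus strand) stood at 1.14, 1.16 and 1.06 FPKM in CTRL and at 2.08, 2.38 and 1.84 FPKM in cKO libraries. The groups did not overlap, and each library held 213 to 238 reads in control against 358 to 453 reads in the cKO group. Mean FPKM was 1.87 times the control level, and the log2 fold change of FPKM + 1 was 0.54 (95% confidence interval 0.34 to 0.74, adjusted p = 0.0030). The added 1 FPKM shrinks this value for a gene so low, and the log2 ratio of the means without it was 0.90. Coding bases of Myh9 and Myh10 were 74.7% identical, with a longest shared run of 122 bases.

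Myh14, the third non-muscle heavy chain, had 0 reads in all control libraries and 1, 8 and 0 reads in the Myh9-deficient ones. Myh10 made up 4.74, 4.88 and 4.6% of the summed FPKM of Myh9, Myh10 and Myh14 in control libraries and 10.1, 10.6 and 9.44% in cKO libraries. This share was thus 4.74% ± 0.141 in CTRL and 10.1% ± 0.588 in cKO LSKs (SD, n = 3), and the ratio of Myh9 to Myh10 FPKM went from 20.1 ± 0.627 to 8.95 ± 0.602. Myh9 remained by far the larger part in every library. The summed level of the 3 heavy chains was 23.7 ± 0.542 FPKM in CTRL and 20.8 ± 1.48 FPKM in cKO LSKs, and the groups did not overlap (23.1 to 24.1 against 19.5 to 22.4 FPKM).

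**Figure D2:**
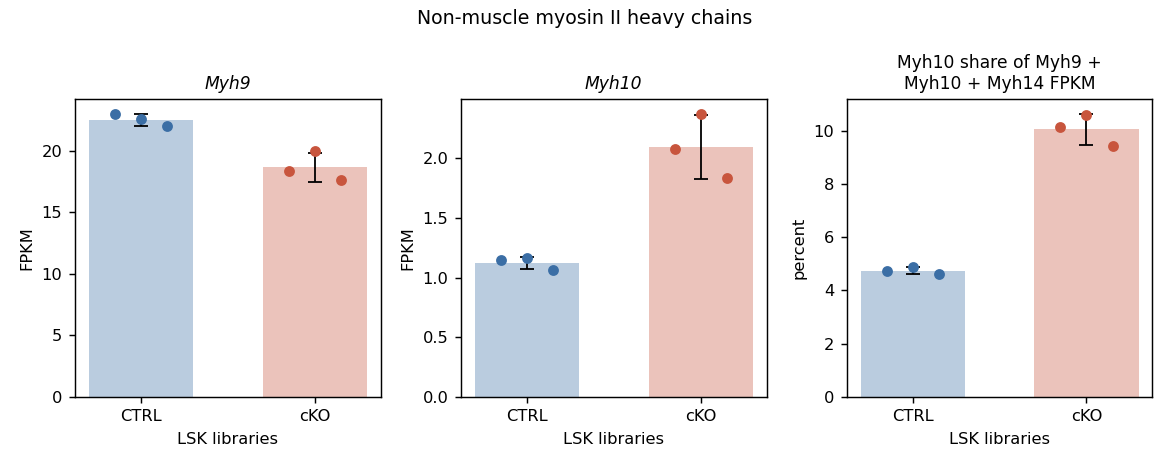
Myh9 FPKM, Myh10 FPKM and the percentage of Myh10 in the summed FPKM of Myh9, Myh10 and Myh14 (vertical axes from 0) in control and Myh9-deficient LSK libraries; points are libraries, bars means and error bars SD (n = 3). Myh9 fell from 22.5 to 18.7 FPKM while Myh10 rose from 1.12 to 2.10 FPKM and its share from 4.74 to 10.1%.

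The heavy chains of muscle were at or near zero. Myh11, of smooth muscle, had 0, 1 and 0 reads in either group, and Myh3, of developing skeletal muscle, and Myh6, of the heart, had a single read in 1 cKO library each. Myh7b had 4, 4 and 1 reads in CTRL and 6, 0 and 3 in cKO libraries. Myh1, Myh2, Myh4, Myh7, Myh8, Myh13 and Myh15 had no read. Of 8 skeletal and cardiac muscle markers only Tnni2 reached 1 FPKM, Actc1 had no read, and their summed level was 1.81 to 2.10 FPKM in CTRL and 1.73 to 3.09 FPKM in cKO libraries. Of 8 smooth muscle and stromal markers none reached 1 FPKM, Lmod1 had no read, and the sums were 0.317 to 0.574 and 0.496 to 0.617 FPKM.

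Of the 6 light chains tested, 3 rose and 0 were called lower (0 at an unadjusted p under 0.05 with limma and 0 with voom), and the median log2 fold change was 0.11. Of all genes tested, 19.9% were called higher and 20.6% lower. The regulatory light chains Myl12a, Myl12b and Myl9 carry the site at which light chain kinases act, a threonine followed by a serine. Myl10 was not examined for this site. The site is shown here because it is the switch of myosin II. It also shows how alike Myl12a, Myl12b and Myl9 are at the level at which reads are assigned. The 60 coding bases around it, with the codons of the threonine (residue 19 counting the first methionine) and the serine (residue 20) in capitals, come from the mouse transcripts of GENCODE M21 (GRCm38, which is mm10):
Myl12a: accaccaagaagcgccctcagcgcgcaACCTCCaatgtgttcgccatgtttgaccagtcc
Myl12b: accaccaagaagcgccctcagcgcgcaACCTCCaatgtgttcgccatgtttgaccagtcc
Myl9: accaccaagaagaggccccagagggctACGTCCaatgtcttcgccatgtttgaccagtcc

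These bases lie in exon 2 of each gene, at chr17:70996794-70996853 (minus strand) for Myl12a, chr17:70977145-70977204 (minus strand) for Myl12b and chr2:156778572-156778631 (plus strand) for Myl9. Myl12a and Myl12b had no differing base over the 60, and Myl9 differed from each at 8. Over the whole coding sequence of 516 bases Myl12a and Myl12b were identical at 498, or 96.5%. The 60 coding bases in which they differed most are shown next, since reads over this stretch can be told apart, with the 7 differing bases in capitals:
Myl12a: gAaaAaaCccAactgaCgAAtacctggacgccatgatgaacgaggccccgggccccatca
Myl12b: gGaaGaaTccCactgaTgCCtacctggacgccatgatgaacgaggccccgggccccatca

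This stretch lies in exon 3, at chr17:70996212-70996271 for Myl12a and chr17:70975561-70975620 for Myl12b, both on the minus strand. The neighbouring genes are 2765 bases apart. A locus annotated across both of them (ENSMUSG00000117098) shares 13.75% of the exonic bases of Myl12a and 26.7% of those of Myl12b, and it had 3 to 9 reads itself. How the counting placed reads in shared or near-identical bases is not given in the sources used here, so the split between the 2 genes is uncertain.

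Myl12a (ENSMUSG00000024048), a regulatory light chain of non-muscle cells, stood at 31.6, 29.9 and 34.6 FPKM in CTRL and 36.7, 37.1 and 39.4 FPKM in cKO libraries. The groups did not overlap, and the log2 fold change was 0.23 (95% confidence interval 0.09 to 0.37, adjusted p = 0.019). This call was lost without control library 1 (adjusted p = 0.060) or without cKO library 3 (adjusted p = 0.061). Its neighbour Myl12b (ENSMUSG00000034868) stood at 2.47, 2.01 and 2.71 FPKM in CTRL and 2.08, 2.02 and 2.11 FPKM in cKO libraries, which overlapped (log2 fold change -0.14, 95% confidence interval -0.35 to 0.07, adjusted p = 0.25). Summed over the pair, the level was 34.4 ± 2.75 FPKM in CTRL and 39.8 ± 1.47 FPKM in cKO LSKs (SD, n = 3), with no overlap between the libraries.

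Myl6, the essential light chain of non-muscle and smooth muscle myosin, was the most abundant myosin transcript per length. Myl6 (ENSMUSG00000090841, chr10:128490860-128494145, minus strand) had 155, 158 and 159 FPKM in CTRL and 171, 167 and 169 FPKM in cKO libraries. The rise was small but larger than the spread between libraries, with a log2 fold change of 0.10 (95% confidence interval 0.05 to 0.15, adjusted p = 0.011). It was not called after quantile normalization (log2 fold change 0.05, adjusted p = 0.12). Myl6b, a second essential light chain on the same strand, whose 3' end lies 11 bases from Myl6, had 5.31, 4.79 and 5.61 FPKM in CTRL and 6.19, 4.93 and 6.23 FPKM in cKO libraries (adjusted p = 0.36).

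Levels per length depend on the length used. The deposited length of Myl6 is 3187 bases, over all its annotated exons, while its principal transcript has 665 bases. With the principal transcript in place of the deposited length, Myl6 stood at 754 ± 8.18 in control and 810 ± 7.82 in Myh9-deficient LSKs, on the same scale of reads per length and library size. On that scale Myl12a stood at 55.6 and 65.5, Myo1g at 41.9 and 40.9, Myh9 at 39.2 and 32.5 and Myo1f at 29.2 and 16.7 in control and cKO LSKs. Myl6 led on both scales, while Myo1g passed Myh9 in control LSKs only on the second. The ratio of the group means of a gene does not depend on the length, whereas the log2 fold change of FPKM + 1 does so for low genes.

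Myl10, a regulatory light chain first described in lymphocyte precursors, rose more than any other myosin gene tested. Myl10 (ENSMUSG00000005474) stood at 3.64, 3.02 and 3.25 FPKM in CTRL and 9.5, 5.97 and 7.24 FPKM in cKO libraries. The cKO libraries varied among themselves, but the lowest of them was well above the highest control library. The control libraries held 64 to 87 reads and the cKO libraries 131 to 214, and the log2 fold change was 0.98 (95% confidence interval 0.63 to 1.32, adjusted p = 0.0025). The ratio of the mean FPKM was 2.29, and the log2 fold change was 1.15 with a pseudocount of 0.1 and 1.18 with voom. Of the summed FPKM of Myl12a, Myl12b, Myl9 and Myl10, Myl10 made up 8.76% ± 0.827 in control and 15.9% ± 3.34 in Myh9-deficient LSKs. Beside it, 4 of the 8 B and plasma cell markers were tested and 3 of them rose, Jchain, Mzb1 and Cd79a, with Jchain going from 30.4 ± 0.347 to 64.0 ± 3.63 FPKM. Cd79a (0.743 FPKM in CTRL and 1.52 FPKM in cKO) reached the filter only through the cKO libraries. Whether cells with these markers carried the Myl10 transcript was not tested.

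Myl4, an essential light chain of atrial and embryonic muscle that erythroid cells also express, had 1.17, 1.29 and 0.764 FPKM in CTRL and 1.00, 1.09 and 1.02 FPKM in cKO libraries (adjusted p = 0.92). All 7 erythroid markers tested rose, of which Hba-a1 (0.812 to 3.47 FPKM) reached the filter only through the cKO libraries. Myl9, the regulatory light chain of smooth muscle and of megakaryocytes, did not reach the filter, at 0, 0 and 1 reads in CTRL and 3, 3 and 6 reads in cKO libraries. These few reads lay higher in cKO libraries without overlap, beside a rise of all 5 megakaryocyte markers tested, among them Pf4 (31.9 ± 1.10 to 68.1 ± 4.42 FPKM). Their part in the reads of Myl9 was not tested. Myl2, of ventricular muscle, had 3, 0 and 2 reads in CTRL and 5, 1 and 3 in cKO libraries, and Myl1, Myl3 and Myl7 had no read.

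The summed level of all light chains was 201.4 ± 3.76 FPKM in CTRL and 223 ± 4.11 FPKM in Myh9-deficient LSKs, and that of the non-muscle heavy chains moved the other way. The ratio of light chain to non-muscle heavy chain FPKM was 8.52 ± 0.350 in control and 10.8 ± 0.920 in cKO LSKs (SD, n = 3), and the groups did not overlap (8.28 to 8.92 against 9.76 to 11.5). Myl6 set most of the light chain sum, so the ratio carries the uncertainty of its length and, with it, no meaning as a number of molecules. The ratio also sets shorter genes (Myl6 3187 and Myl12a 3360 bases) against a long one (Myh9, 12928 bases). It was not corrected for the drift of fold changes with gene length.

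**Figure D3:**
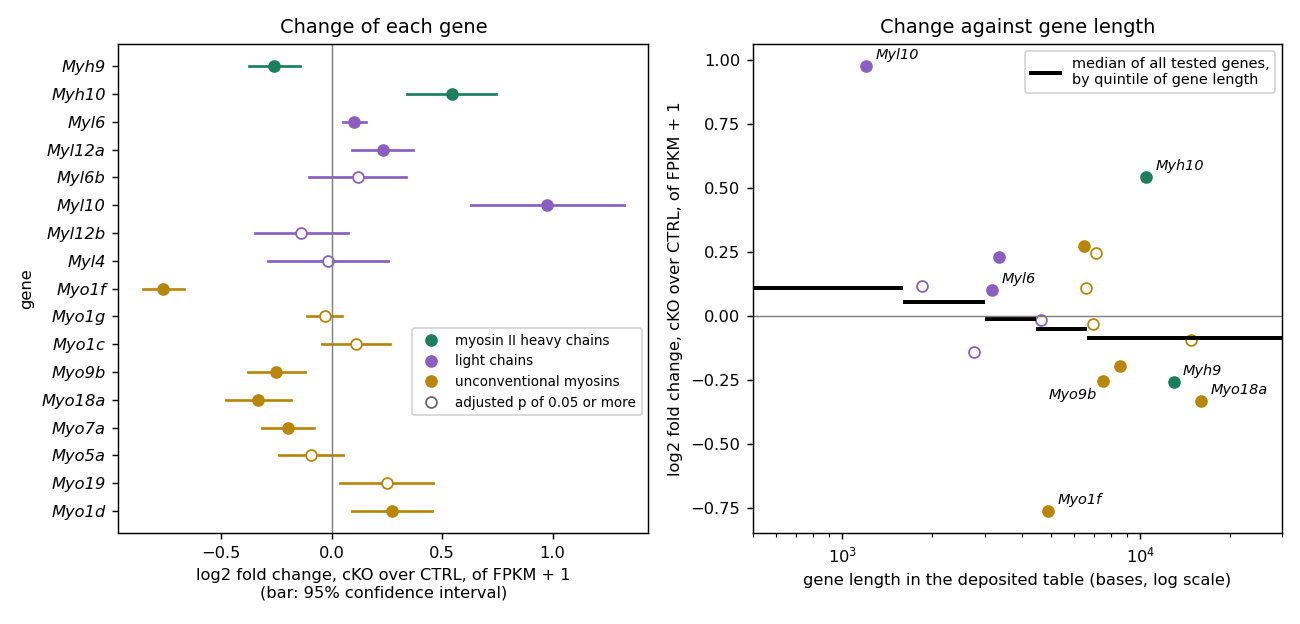
Left, log2 fold change of FPKM + 1 in Myh9-deficient over control LSKs (horizontal) with its 95% confidence interval for each tested myosin gene (vertical), filled where the adjusted p was under 0.05; right, the same values (vertical) against the deposited gene length on a log axis (horizontal), with the median of all tested genes in each quintile of length as black lines. Myl10 (0.98) and Myh10 (0.54) lay above and Myo1f (-0.76) below the medians. Myh9 (-0.26) and Myo18a (-0.33) lay below the median of -0.09 of the longest quintile, which also holds Myh10.

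Among the 9 unconventional myosins tested, 1 rose and 4 fell, against 19.9% of all genes tested called higher and 20.6% lower. The gene that rose, Myo1d, reached the filter only through the cKO libraries. The median of the 9 log2 fold changes was -0.09. Without control library 1, control library 2 or cKO library 3, the number called dropped from 5 to 3. With the trend with GC content and length removed, Myo1c, Myo19 and Myo1d were called higher and Myo1f lower. Myo1f, a class I myosin of neutrophils and other leukocytes, changed most. Myo1f (ENSMUSG00000024300, chr17:33555719-33607764, plus strand) stood at 22.4, 23.0 and 23.0 FPKM in CTRL and at 13.2, 13.4 and 12.4 FPKM in cKO libraries. The level fell by 42.8%, from 22.8 ± 0.314 to 13.0 ± 0.574 FPKM (SD, n = 3), and the gap between the groups was many times the spread within them. The log2 fold change was -0.76 (95% confidence interval -0.86 to -0.67, adjusted p = 3.5e-05), and with the trend with GC content and length removed it was -0.69 (adjusted p = 4.2e-05).

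In control LSKs Myo1f had about as high an FPKM as Myh9, and in Myh9-deficient LSKs it fell below Myo1g. With the lengths of principal transcripts, Myo1f (29.2) was already below Myh9 (39.2) and Myo1g (41.9) in control LSKs. The share of Myo1f in the summed FPKM of all unconventional myosins was 29.3% ± 0.685 in control and 19.9% ± 0.648 in Myh9-deficient LSKs, and that sum went from 77.6 ± 1.12 to 65.4 ± 1.70 FPKM. Of the 6 neutrophil and monocyte markers tested, 5 fell, among them Mpo (3331 ± 32.1 to 1953 ± 17 FPKM) and Elane (3096 ± 37.6 to 1346 ± 28.5 FPKM), and of the 6 macrophage markers 3 fell and 3 rose. Adgre1 (1.56 to 0.590 FPKM) reached the filter only through the control libraries and C1qc (0.602 to 1.99 FPKM) only through the cKO libraries. The part of these marker genes in the fall of Myo1f was not tested.

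Myo1g, a class I myosin of hematopoietic cell membranes, was near Myh9 in FPKM and was not called. It stood at 20.0, 20.3 and 19.4 FPKM in CTRL and at 19.0, 19.4 and 19.9 FPKM in cKO libraries. The libraries overlapped, and the interval of the log2 difference ran from -0.11 to 0.05 (adjusted p = 0.47). The ratio of Myo1f to Myo1g FPKM was 1.14 ± 0.0329 in control and 0.670 ± 0.0423 in Myh9-deficient LSKs, without overlap. Myo1c, which links membranes and vesicles to actin, had 9.0, 8.32 and 8.52 FPKM in CTRL and 8.95, 10.3 and 8.89 FPKM in cKO libraries (adjusted p = 0.21). It was called higher in 1 of 17 alternative fits, with the trend with GC content and length removed (log2 fold change 0.22, adjusted p = 0.026).

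The other 3 calls among the falling genes were smaller. Myo18a, a myosin with a PDZ domain that binds myosin II filaments, had 5.65, 6.15 and 5.85 FPKM in CTRL and 4.09, 4.76 and 4.56 FPKM in cKO libraries (log2 fold change -0.33, adjusted p = 0.0062). Myo9b, whose tail holds a GTPase-activating domain, had 8.73, 8.44 and 8.01 FPKM in CTRL and 7.05, 7.18 and 6.43 FPKM in cKO libraries (log2 fold change -0.25, adjusted p = 0.011). Myo7a, known from hair cells of the inner ear, had 4.51, 4.45 and 4.21 FPKM in CTRL and 3.73, 3.79 and 3.58 FPKM in cKO libraries (log2 fold change -0.20, adjusted p = 0.019). For each of the 3 genes every cKO library was below every control library. With the trend with GC content and length removed none of them was called, with adjusted p of 0.076 for Myo18a, 0.075 for Myo9b and 0.31 for Myo7a. Myo7a was also lost without control library 1, control library 2 or cKO library 3 (adjusted p of 0.067, 0.063 and 0.056).

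Higher values in the cKO libraries were found for 2 of the lowest genes tested. Myo1d, another class I myosin, had 0.871, 0.913 and 0.903 FPKM in CTRL and 1.19, 1.30 and 1.39 FPKM in cKO libraries (log2 fold change 0.27, adjusted p = 0.027). Its mean was 0.896 FPKM in CTRL and 1.29 FPKM in cKO libraries, so it reached the filter only through the group where it was higher. Although the groups did not overlap, this call was lost when any library other than cKO library 1 was left out, with adjusted p of 0.063 to 0.078. Myo19, which moves mitochondria along actin, had 1.44, 1.23 and 1.40 FPKM in CTRL and 2.08, 1.67 and 1.65 FPKM in cKO libraries (log2 fold change 0.25, adjusted p = 0.062). Myo19 did not pass in the main limma fit, though its groups did not overlap. It passed in 4 of 16 alternative fits, among them voom (adjusted p = 0.012) and limma with GC and length trends removed (adjusted p = 0.019). Of its exonic bases, 3.89% are shared with Znhit3 on the other strand. Myo5a, a carrier of pigment granules and other vesicles, had 2.97, 2.96 and 2.68 FPKM in CTRL and 2.50, 2.69 and 2.70 FPKM in cKO libraries (adjusted p = 0.27).

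The 21 myosin genes that had reads but no mean of 1 FPKM are given by their reads, since their FPKM rest on few of them. The groups did not overlap in FPKM for 6 of the 21, against 54% of all genes above the filter. No such share was computed for genes this low. Higher in Myh9-deficient LSKs were Myo1e, the nearest relative of Myo1f, with 19, 15 and 14 reads in CTRL and 24, 29 and 53 in cKO libraries, Myo5c with 14, 12 and 18 against 46, 39 and 26, Myo1h with 28, 25 and 23 against 27, 31 and 28, and Myl9. Lower was Myo18b, with 23, 12 and 20 reads in CTRL and 6, 1 and 5 in cKO libraries. The level of Myo1e was 0.148 ± 0.0198 and 0.334 ± 0.145 FPKM, far below that of Myo1f, and the highest cKO library held 53 of its reads. In a fit without the filter Myl9 was the only one of the 21 that was called (adjusted p = 0.040), followed by Myo5c (adjusted p = 0.051) and Myo18b (adjusted p = 0.053).

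For other low genes the groups overlapped. Myo15b had 96 to 149 reads per library, Myo9a 96 to 128, and Myo10, the myosin of filopodia, 84 to 111. Myo6, which walks towards the minus end of actin, had 8 to 31 reads, Myo15 had 8 to 21, Myo5b and Myo16 had 0 to 10, Myo1a had 0 to 4 and Myo3b had 0 to 5. Myo3a and Myo7b had no read in any library, which allows up to 3 reads each.

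**Figure D4:**
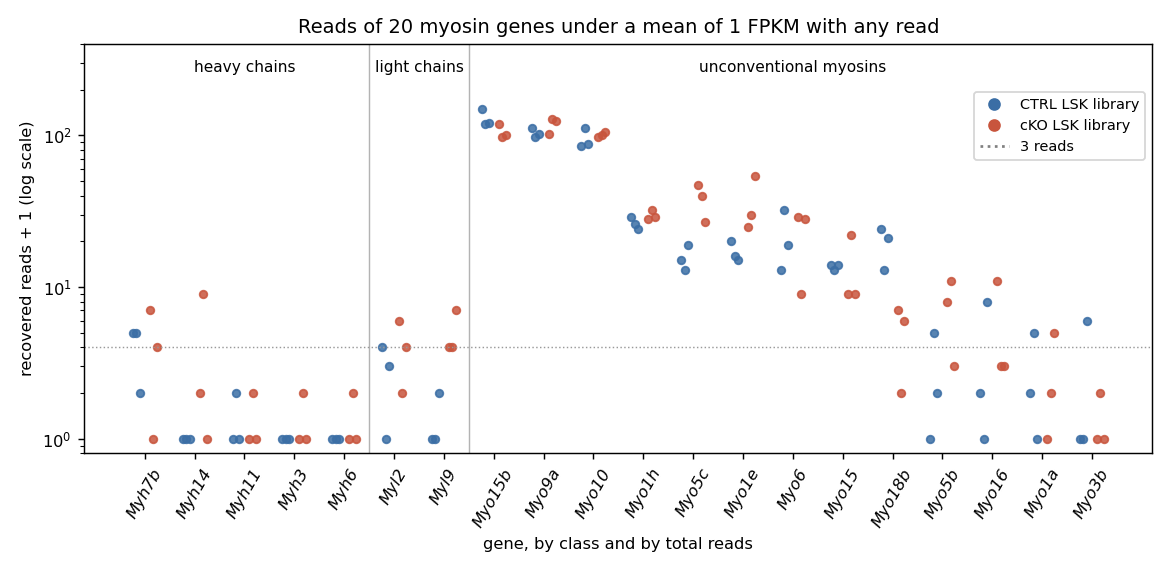
Reads plus 1 on a log axis (vertical) of 20 myosin genes under a mean of 1 FPKM that had any read (horizontal, by class and total reads) in control (blue) and Myh9-deficient (red) LSK libraries, with 3 reads dotted. Heavy and light chains stayed at 8 reads or fewer in every library, while Myo15b, Myo9a and Myo10 had 84 to 149.

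The activity of myosin II is set by enzymes that act on its regulatory light chain, and a list of 43 such regulators was examined beside the motors. All 43 were rows of the table and 26 were tested, of which 11 were called, 2 higher and 9 lower, and the median over the 26 was -0.09 on the log2 scale. The 42.3% called is near the 40.5% of all genes tested, and 19.9% of all genes were called higher and 20.6% lower. With the trend with GC content and length removed 7 were called, 3 higher and 4 lower. Of the 7 light chain kinases tested 0 were called with limma, 0 at an unadjusted p under 0.05, while voom called 2 lower, Rock2 and Cit. Rock1 and Rock2, kinases under the control of Rhoa, stood at 6.66 ± 0.118 and 3.26 ± 0.231 FPKM in CTRL and at 6.54 ± 0.143 and 2.89 ± 0.0510 FPKM in Myh9-deficient LSKs (adjusted p of 0.69 and 0.12). Mylk, the calcium-dependent light chain kinase, did not reach the filter, at 62, 54 and 54 reads in CTRL and 100, 104 and 103 in cKO libraries, which did not overlap.

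On the side of the phosphatase, Ppp1r14b, an inhibitor of protein phosphatase 1, rose from 238 ± 5.14 to 318 ± 1.07 FPKM (0.41 on the log2 scale, adjusted p = 5.4e-05). Ppp1cb, the catalytic subunit of the light chain phosphatase, fell from 20.3 ± 0.296 to 18.1 ± 0.398 FPKM (-0.15 on the log2 scale, adjusted p = 0.0094, and 0.063 with the trend with GC content and length removed). Ppp1r12a, its targeting subunit, was at 6.98 ± 0.0988 and 6.56 ± 0.440 FPKM (adjusted p = 0.28). Inhibitor and catalytic subunit thus moved in opposite directions.

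Of the 8 small GTPases and exchange factors tested, 6 fell and 1 rose, while 20.6% of all genes tested were called lower and 19.9% higher. Rhob, an early-response small GTPase, fell from 66.2 ± 2.92 to 47.9 ± 0.146 FPKM (-0.46 on the log2 scale, adjusted p = 0.0002). Rhoa, the GTPase that activates the Rock kinases, fell from 37.9 ± 0.276 to 33.65 ± 0.773 FPKM (-0.17 on the log2 scale, adjusted p = 0.0045). Both remained called with the trend with GC content and length removed. With the replicate block added to that fit, Rhoa was not called (adjusted p = 0.052). The exchange factors Arhgef11, Akap13, Arhgef2 and Arhgef1, which load small GTPases with GTP, had log2 fold changes of -0.34, -0.22, -0.22 and -0.13. None of these 4 was called with the trend with GC content and length removed. Arhgef1 also lost its call when any library other than cKO library 1 was left out (adjusted p of 0.053 to 0.11). Net1, an exchange factor of RhoA, rose from 6.41 ± 0.287 to 8.24 ± 0.405 FPKM (0.32 on the log2 scale, adjusted p = 0.0035).

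Further along the pathway, Mylip, a ubiquitin ligase named for its binding to the regulatory light chain, fell from 7.34 ± 0.583 to 5.22 ± 0.512 FPKM (-0.43 on the log2 scale, adjusted p = 0.0065). The other 4 tested genes for binding and folding of myosin, Unc45a, Llgl1, Trpm7 and Mprip, were not called, also with voom. S100a4, which binds the tail of NMHC IIA, had 0, 3 and 3 reads in CTRL and 0, 0 and 1 in cKO libraries. Srf, the transcription factor of many actin and myosin genes, was at 32.5 ± 2.18 and 30.6 ± 0.547 FPKM (adjusted p = 0.23), while its coactivator Mkl1 fell from 5.72 ± 0.144 to 4.39 ± 0.251 FPKM (-0.32 on the log2 scale, adjusted p = 0.0036).

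**Figure D5:**
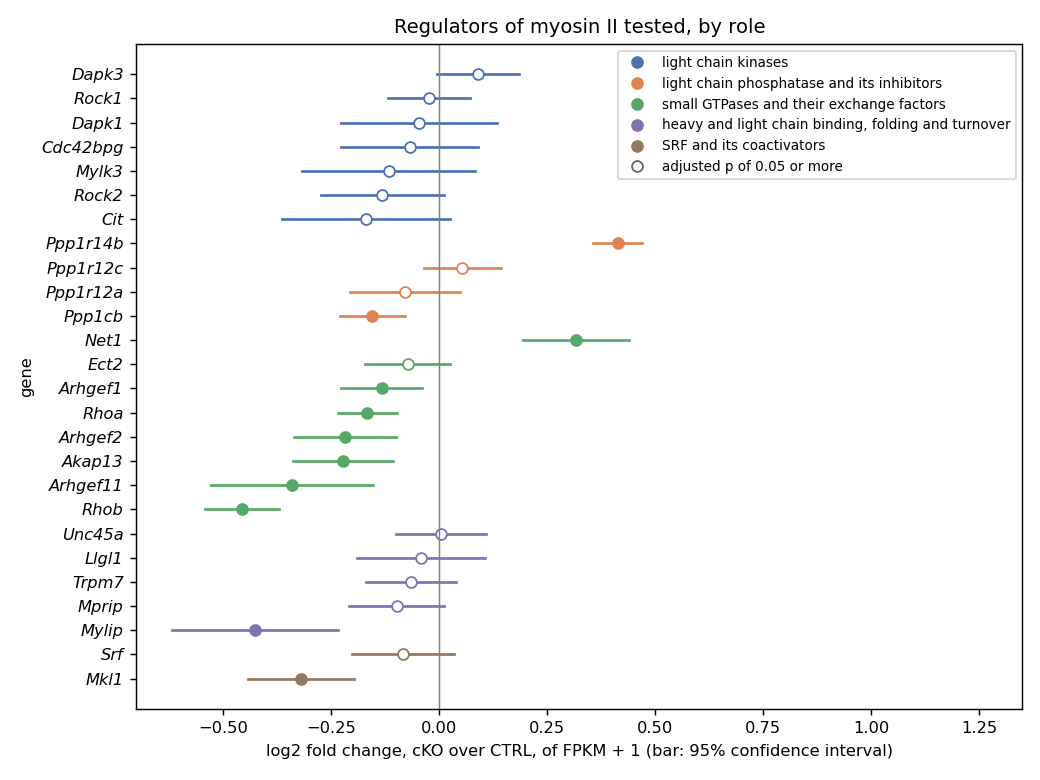
Log2 fold change of FPKM + 1 in Myh9-deficient over control LSKs (horizontal) with its 95% confidence interval for the 26 tested regulators of myosin II (vertical, coloured by role), filled where the adjusted p was under 0.05. The 7 light chain kinases are open, Ppp1r14b and Net1 lie to the right of 0 and the other 9 filled points to the left.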

How the data were processed

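LSK cells of 3 control and 3 Myh9-deficient libraries were measured by RNA-seq after Trizol extraction and TruSeq library preparation. The authors deposited FPKM values with a gene length in bases for 54532 genes, 1 column per library. The submitters' processing notes name HISAT2 2.0.5 and mm10, and the counting program is not given in the sources used here. Poly I:C was given in 2 doses by the labels and in more by the study's methods. Whether each library came from 1 mouse or a pool was not stated, so p-values measure the spread between these libraries, which may be technical.

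Multiplied by gene length, 100% of FPKM values up to 2000 reads were whole numbers of reads (tolerance 0.1 read), and these recovered reads are printed for low genes. No pair of libraries was a repeat of the same library, since replicates differed by more than sampling noise (chi-square per gene 2.79 to 5.15). Read numbers thus carry differences between libraries as well as counting error.

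The 11552 genes whose mean reached 1 FPKM were tested with limma 3.58.1 (R 4.3.3; lmFit, eBayes with a trend) on log2(FPKM + 1), two-sided, with Benjamini-Hochberg adjustment, and the script was tested on simulated data. Every myosin gene above the filter is named, and regulators were named if called or if among 8 fixed ones (Rock1, Rock2, Mylk, Ppp1cb, Ppp1r12a, Rhoa, Srf and S100a4). Some items, among them 1 myosin gene with few reads, are not reported here. The genes and lists were chosen with earlier results of these data known. Labels share replicate numbers, but same-numbered libraries did not deviate together. Sequences and overlaps came from GENCODE M21, in which all 50 identifiers were found, 49 at the same position. Alternatives were other pseudocounts, filters and scalings, voom on the recovered reads, a replicate block, removal of GC and length trends, and leaving out each library. Other software was Python 3.11.15, pandas 2.3.3, numpy 2.4.6, Biopython 1.88, matplotlib 3.10.9 and data.table (1.17.8).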

Additional observations from a re-analysis of the deposited data

How the results depend on the processing

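The number of genes called was 4673, fell to between 3542 and 4108 with any 1 library removed, and was 246 by the study's thresholds of fold and unadjusted p. At those thresholds 0 myosin genes and 0 regulators passed with a pseudocount of 1, against 10 and 11 called, while Myl10 passed with voom (1.18) and its log2 ratio of mean FPKM was 1.20. Leaving out 1 library gave 7 to 10 myosin genes and 10 to 12 regulators, a log2 fold change of -0.31 to -0.22 for Myh9 and 0.48 to 0.60 for Myh10. With GC and length trends removed 7 regulators were called, and 5 with the replicate block as well, and Myh9 stood at -0.098 (adjusted p 0.106, and 0.138 with the replicate block). In these 2 fits Myo1g (0.055), Myo5a (0.016), Rock1 (0.0049) and Myl4 (0.032), none of them called, changed sign, and Myl4 did so with voom (0.00033) and with 1 library left out (-0.13 to 0.057). The cause was not tested. The log2 ratio of mean Myh10 FPKM without a pseudocount was 0.90. The Myh10 share rose by 5.32 percentage points, by 4.43 as a share of reads and by 4.25 with lengths of principal transcripts, an alternative chosen after seeing the data.

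Same-numbered libraries of the groups had correlations of -0.0046, -0.011 and -0.026 between their deviations, and no library correlated best with its own number. These values show no pairing, though 3 libraries in each group give little power to detect one. With the replicate block 4107 genes and 9 myosin genes were called, and Myo1d was not (adjusted p 0.064). For genes with few reads per library, such as Myl9, the depth limits the precision.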
